A study of Mus musculus with 29 samples.

Results

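The genes described here are 32 genes tied to p53, of 24421 gene features in each count table: Trp53, which encodes p53, and 31 genes known as its targets in cell cycle arrest, apoptosis, DNA repair and the response to stress. They were picked by name, with earlier results of these data known, and no measured value enters the rule itself. All 32 were found by symbol in the 4 tables. p53 is a transcription factor held at a low level by MDM2, a ubiquitin ligase that marks p53 for destruction and whose own gene p53 activates. Damage and stress act on p53 mostly at the level of the protein, so the transcripts of its targets are commonly read as a measure of its activity. Mouse embryonic stem (ES) cells are known for abundant p53 protein and for a weak arrest in G1.

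The values are RNA-seq counts of 20 libraries from ES cells of the strain 129/Ola, cultured on gelatin with serum. They form 10 groups of 2 libraries in 4 experiments. One experiment has wild-type cells and the lines KO1 and KO2, whose genotype is given as Trim66 knockout. Another has cells with a GFP vector and cells that overexpress GFP-TRIM66. The third has wild-type control cells and cells with knockdown of Dax1, the common name of Nr0b1, by hairpin sh1 or hairpin sh2. The last has wild-type control cells and cells with double knockdown of Dax1 and Dux. The labels state for no group how the cells were made, whether a line is 1 clone, what the control cells of the knockdowns carried, or whether replicates were separate cultures. The p-values therefore measure the spread between libraries, which may be technical.

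Library totals ran from 12483949 to 17365296 counts. Markers of ES cells were detected in every group, with a summed level from 2804 to 8852 CPM (counts scaled to library size, with TMM factors within an experiment). The targeted genes were read first. Trim66 was higher in the libraries labelled knockout (log2 fold change 1.55 ± 0.29 SE, adjusted p = 0.00483), at low counts. Wild-type libraries held 11 and 15 counts of it, and those of the lines held 33 to 48. The deleted part of the gene is not given in the sources used here, so these counts cannot check the label. Directions below therefore belong to the libraries labelled KO1 and KO2. For the mean of both Dax1 hairpins Trim66 was also higher (1.82 ± 0.64, adjusted p = 0.0281), at 2 to 17 counts per library. Trim66 was higher by 6.90 ± 0.28 on the log2 scale with GFP-TRIM66 (adjusted p = 5.39e-04). Nr0b1 fell by 1.17 on the log2 scale with the Dax1 hairpins (SE 0.048, adjusted p = 7.60e-17). Its log2 fold change in the double knockdown was -0.90 ± 0.23 (adjusted p = 0.275), and the level of Dux was not assessed here. With TMM factors over all 20 libraries, Nr0b1 stood at 49.6 and 33.8 CPM in the controls of the double knockdown. On that scale it stood at 155 and 163 in the Dax1 controls and at 58.8 to 79.6 with the hairpins. It stood at 155 and 155 in wild type, at 36.4 and 91.1 with the GFP vector and at 199.5 and 97.6 with GFP-TRIM66. The control groups of these experiments thus differed in Nr0b1, and the cause was not tested. Adjusted p values are from edgeR's quasi-likelihood test with Benjamini-Hochberg adjustment over all genes and transposable elements tested, and a gene is called higher or lower below 0.05.

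Some libraries stood apart from their replicate. In the double knockdown experiment, control replicate 1 held the lowest of the 4 levels for 23 of the 32 genes, against 35.9% of all tested features, and control replicate 2 the highest for 15, against 21.1%. GFP vector replicate 2 held the highest level of its experiment for 18 of the 32, against 17.4% of all tested features, and vector replicate 1 for 10. Dax1 control replicate 2 held the lowest for 17 of 31, against 17.8%, and control replicate 1 for 8. The counts of these 2 experiments hold the difference between groups too, so they do not measure replicate spread alone. With GFP-TRIM66, the deviations of same-numbered libraries from their group means were correlated at r = -0.547 over all tested features. The common biological coefficient of variation was 0.0392 in the Dax1 experiment, 0.102 in the Trim66 experiment, 0.189 in the double knockdown and 0.283 with GFP-TRIM66. Of the 32 genes, 7 overlap another annotated gene (Eda2r, Apaf1, Ei24, Zmat3, Xpc, Rrm2b and Cd82), Trp53 has a pseudogene and Rps27l a close paralog, Rps27. Strand use in counting is not given in the sources used here, so reads of overlapping genes cannot be told apart.

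p53 binds as a tetramer to a pair of adjoining decamers that share a self-complementary consensus. The promoter windows shown here, of genes that later results turn on, were picked from those with at least 1 such decamer, not a pair. Mdm2, Ccng1, Aen and Rps27l were higher with both Dax1 hairpins, and Cdkn1a and Ei24 were called in opposite directions. Plk2, Eda2r, Apaf1, Phlda3, Psrc1, Slc19a2 and Ak1 were also higher with both hairpins, and no window found for them held a match. Each window runs from 250 bases before to 50 bases after an annotated start, is written 5′ to 3′ on the gene's strand, and has the decamers that match the p53 half-site consensus in capitals. The sequences are from RefSeq on GRCm38.p6.
Mdm2, chr10:117710709-117711008, minus strand: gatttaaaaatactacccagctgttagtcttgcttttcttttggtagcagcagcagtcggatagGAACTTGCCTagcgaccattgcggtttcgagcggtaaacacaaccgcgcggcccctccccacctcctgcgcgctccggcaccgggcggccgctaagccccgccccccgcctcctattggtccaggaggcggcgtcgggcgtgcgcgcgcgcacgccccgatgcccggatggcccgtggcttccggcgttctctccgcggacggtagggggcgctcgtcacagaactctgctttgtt
Ccng1, chr11:40755237-40755536, minus strand: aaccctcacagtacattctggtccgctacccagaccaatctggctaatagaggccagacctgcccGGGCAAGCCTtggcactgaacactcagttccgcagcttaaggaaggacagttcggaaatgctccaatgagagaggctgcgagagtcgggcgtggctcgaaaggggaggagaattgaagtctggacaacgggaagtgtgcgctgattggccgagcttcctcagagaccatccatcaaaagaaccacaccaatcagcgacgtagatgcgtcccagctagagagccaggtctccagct
Aen, chr7:78895677-78895976, plus strand: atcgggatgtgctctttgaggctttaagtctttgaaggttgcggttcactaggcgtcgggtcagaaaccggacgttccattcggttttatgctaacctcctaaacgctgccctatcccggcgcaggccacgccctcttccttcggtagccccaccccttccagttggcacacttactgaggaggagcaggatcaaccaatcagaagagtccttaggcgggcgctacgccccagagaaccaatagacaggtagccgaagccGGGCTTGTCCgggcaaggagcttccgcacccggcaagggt
Rps27l, chr9:66946163-66946462, plus strand: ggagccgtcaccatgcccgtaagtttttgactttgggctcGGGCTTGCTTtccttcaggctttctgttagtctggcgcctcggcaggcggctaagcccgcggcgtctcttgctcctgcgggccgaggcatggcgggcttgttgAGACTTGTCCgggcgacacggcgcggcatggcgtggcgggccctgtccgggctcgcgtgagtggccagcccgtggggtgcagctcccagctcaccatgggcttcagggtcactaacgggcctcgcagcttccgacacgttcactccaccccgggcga
Cdkn1a, chr17:29090729-29091028, plus strand: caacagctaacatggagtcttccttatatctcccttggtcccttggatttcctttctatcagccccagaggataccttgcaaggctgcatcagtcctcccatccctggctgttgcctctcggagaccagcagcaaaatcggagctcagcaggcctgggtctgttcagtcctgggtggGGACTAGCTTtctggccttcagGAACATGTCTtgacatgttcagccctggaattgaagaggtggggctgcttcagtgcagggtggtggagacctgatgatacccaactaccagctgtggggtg
Ei24, chr9:36797285-36797584, minus strand: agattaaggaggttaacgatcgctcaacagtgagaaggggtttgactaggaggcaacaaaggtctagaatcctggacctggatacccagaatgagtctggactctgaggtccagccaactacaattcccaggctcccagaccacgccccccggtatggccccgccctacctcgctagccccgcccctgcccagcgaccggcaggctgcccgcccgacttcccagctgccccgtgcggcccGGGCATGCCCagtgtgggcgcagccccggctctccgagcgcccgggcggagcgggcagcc

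Windows were found for 25 of the 32 genes. The p53 half-site consensus, which reads the same on both strands, was present in a window of 11 of these 25 (44%), against 9.55% of 27025 genes with a window. Counted by window it was in 12 of 41 (29.3%), against 8.36% of 32851. The genes were picked as known p53 targets, so this excess goes with the choice and is no result of the libraries. The Cdkn1a window, at an upstream start, held 2 decamers, and the one whose first base lies at -51 was followed directly by a decamer that departs from the consensus in 1 letter. In the Ccng1 window the decamer at -185, and in the Rps27l window that at -107, followed directly on a decamer that departs in 1 letter. The same held for the decamer at 10 in a Gtse1 window that is not shown. The other decamers in the windows shown had no such neighbour. Those at -186 in Mdm2, -10 in Ei24, 11 in Aen, -73 in Cdkn1a and -210 in Rps27l adjoined decamers departing in at least 3 letters. No other motif was searched, and a match is a match of letters in this window. The known p53 sites of Mdm2 lie in an intron, outside the window.

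Most of the p53 target genes were higher with knockdown of Dax1. Of 31 tested, 23 were called higher and 0 lower for the mean of both hairpins against the control, where 16.8% of all tested features were called higher and 17.8% lower. The median log2 fold change of the 31 was 0.31, and that of all tested features 0.0092. All 4 hairpin libraries lay above both controls for 21 of the 31, against 18.1% of all tested features, and below both for 0, against 18.2%. Fas, which encodes a death receptor, had too few counts to be tested. The changes were modest in size. The largest mean effect among called genes was 0.97 on the log2 scale, for Plk2.

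**Figure D1:**
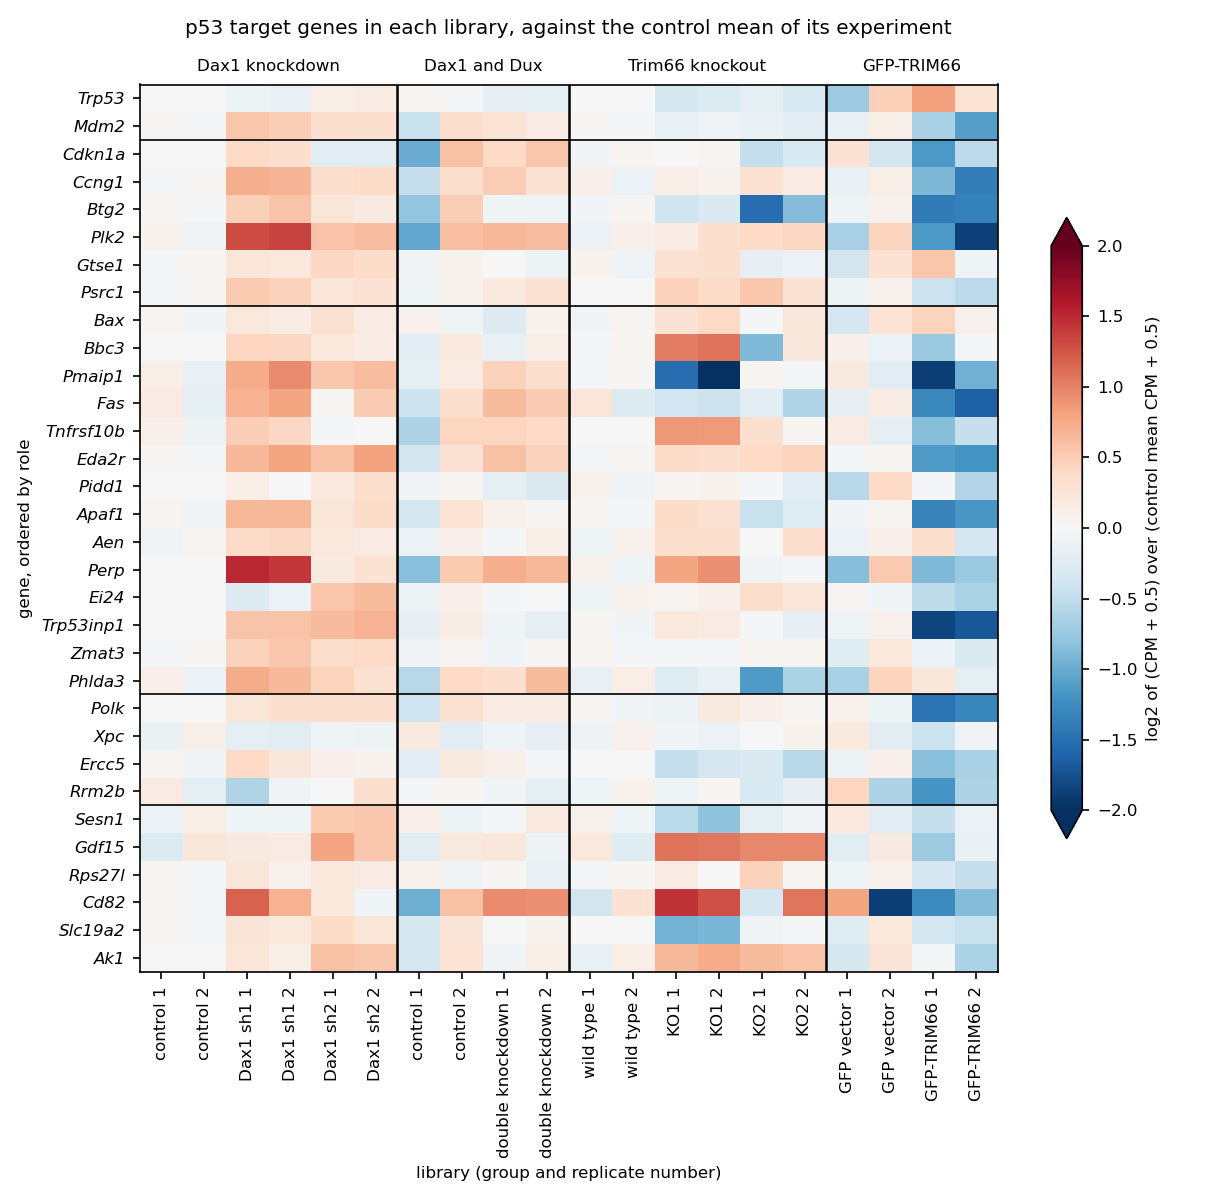
Level of each gene in each of the 20 libraries as a colour, on the scale of log2 of (CPM + 0.5) over (mean CPM of the control group of the same experiment + 0.5), with colours ending at 2 either way. Rows are the 32 genes by role and columns the libraries by experiment. The hairpin libraries of the Dax1 experiment are mostly red, control replicate 1 of the double knockdown is mostly blue, and the GFP-TRIM66 libraries are mostly blue.

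The gene of p53 itself hardly moved with Dax1 knockdown. Trp53 stood at 508 and 518 CPM in the controls, 480 and 468 with sh1, and 565 and 568 with sh2. It was lower with sh1 (log2 fold change -0.12 ± 0.042, adjusted p = 0.0282) and higher with sh2 (0.14 ± 0.042, adjusted p = 0.0124), and the mean of both was 0.014 ± 0.036 (adjusted p = 0.802). Each of the Trp53 calls was lost without a single library: with sh1 the adjusted p was 0.0618 without control replicate 1, 0.143 without control replicate 2 and 0.133 without sh1 replicate 2, and with sh2 it was 0.133, 0.0605 and 0.0562 without control replicate 1, control replicate 2 and sh2 replicate 2. Mdm2, the brake on p53, rose from 99.7 and 95.5 CPM to 143 and 138 with sh1 and to 123 and 122 with sh2. The hairpin libraries of Mdm2 lay above both controls, with log2 fold changes of 0.52 ± 0.053 (adjusted p = 6.59e-09) and 0.33 ± 0.054 (adjusted p = 4.58e-05).

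Among the 6 genes of cell cycle control, 5 were called higher for the mean of both hairpins: Ccng1, Btg2, Plk2, Gtse1 and Psrc1. Plk2, a polo-like kinase of centriole duplication (chromosome 13, 110395044 to 110400844), stood at 33.4 and 30.0 CPM in the controls, 79.3 and 81.5 with sh1 and 47.5 and 48.9 with sh2. Its libraries formed 3 separate levels, and the log2 fold changes were 1.34 ± 0.073 with sh1 (adjusted p = 2.22e-14) and 0.60 ± 0.078 with sh2 (adjusted p = 1.37e-06). Ccng1, which encodes cyclin G1, a partner of the MDM2 and phosphatase circuit that restrains p53, stood at 157 and 163 CPM in the controls, 264 and 256 with sh1 and 202 and 207 with sh2. Ccng1 rose with both hairpins, by 0.70 ± 0.048 (adjusted p = 3.16e-12) and 0.35 ± 0.049 (adjusted p = 3.48e-06). Psrc1, a microtubule regulator of the spindle, rose by 0.49 and 0.27 with sh1 and sh2 (adjusted p = 2.30e-08 and 4.39e-04). Gtse1, a microtubule-binding protein that also restrains p53, rose by 0.23 and 0.39 (adjusted p = 4.21e-04 and 7.88e-07). Btg2, an antiproliferative cofactor of mRNA deadenylation, rose with sh1 (0.53 ± 0.084, adjusted p = 9.23e-06), and with sh2 its log2 fold change was 0.21 ± 0.087 (adjusted p = 0.0837).

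Cdkn1a, which encodes the cyclin-dependent kinase inhibitor p21 and is the textbook target of p53, was called in opposite directions by the hairpins. It stood at 39.8 and 40.0 CPM in the controls, 52.9 and 50.5 with sh1 and 34.1 and 34.6 with sh2. Both sh1 libraries were above and both sh2 libraries below the controls, with log2 fold changes of 0.37 ± 0.074 (adjusted p = 1.75e-04) and -0.22 ± 0.079 (adjusted p = 0.0442). The sh2 call of Cdkn1a was lost without any 1 of the 4 libraries of control and sh2, at adjusted p from 0.112 to 0.156, and with DESeq2 (adjusted p = 0.162). Set against each other directly, sh2 was lower than sh1 for Cdkn1a by 0.59 ± 0.077 on the log2 scale (adjusted p = 6.28e-07).

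Of the 13 tested apoptosis genes 12 were called higher for the mean of both hairpins, all but Pidd1. Perp, a membrane protein of desmosomes and a p53 effector of cell death (chromosome 10, 18845071 to 18857073), stood at 36.6 and 36.3 CPM in the controls, 105 and 98.0 with sh1 and 41.3 and 44.7 with sh2. The sh1 libraries stood far above the rest, by 1.47 ± 0.069 on the log2 scale (adjusted p = 8.64e-16), and the sh2 change was 0.24 ± 0.077 (adjusted p = 0.0239). The sh2 call of Perp was lost without control replicate 1 (adjusted p = 0.101), control replicate 2 (0.121) or sh2 replicate 2 (0.204), and with DESeq2 (0.112). Trp53inp1, a stress protein that aids p53 phosphorylation and autophagy (chromosome 4, 11156441 to 11174379), stood at 85.8 and 84.4 CPM in the controls, 127 and 127 with sh1 and 132 and 139 with sh2. It rose with both, by 0.58 ± 0.054 (adjusted p = 1.63e-09) and 0.67 ± 0.055 (adjusted p = 3.27e-10), and the difference between hairpins was 0.090 ± 0.053 (adjusted p = 0.187).

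Pmaip1, which encodes the BH3-only protein NOXA, stood at 23.8 and 19.4 CPM in the controls, 36.5 and 42.0 with sh1 and 31.7 and 33.4 with sh2. Pmaip1 rose by 0.85 ± 0.10 and 0.58 ± 0.10 on the log2 scale (adjusted p = 7.46e-08 and 1.04e-04). Eda2r, a receptor of the tumour necrosis factor family for ectodysplasin, stood at 32.5 and 31.2 CPM in the controls, 50.2 and 55.4 with sh1 and 48.1 and 56.0 with sh2. It rose by 0.73 and 0.71 (adjusted p = 6.37e-08 and 4.14e-07). Both genes thus had 4 hairpin libraries above both controls. Smaller rises with both hairpins were called for Apaf1, the core of the apoptosome (0.67 and 0.31), Phlda3, a repressor of AKT (0.70 and 0.37), Zmat3, an RNA-binding zinc finger protein (0.50 and 0.37), Aen, a nuclease of apoptotic cells (0.41 and 0.19), and Bax, a pore former of the mitochondrial membrane (0.19 and 0.23). The mean-effect call of Bax was lost without control replicate 2 (adjusted p = 0.0656), and its calls with sh1 and with sh2 were each lost in 2 of 12 alternatives (adjusted p up to 0.128 and 0.0664). The sh2 calls of Apaf1 and Aen were lost in 3 and 2 alternatives (adjusted p up to 0.134 and 0.182).

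Pidd1, the scaffold of the PIDDosome, had a mean effect of 0.17 ± 0.079 (adjusted p = 0.0948). It was higher with sh2 (0.28 ± 0.091, adjusted p = 0.0240), a call lost in 4 of 12 alternatives (adjusted p up to 0.227), and the difference between the hairpins was not called (adjusted p = 0.0621). The last 3 apoptosis genes differed between the hairpins in the direct comparison. Bbc3, which encodes the BH3-only protein PUMA, rose with sh1 (0.43 ± 0.073, adjusted p = 2.67e-05), and with sh2 its log2 fold change was 0.18 ± 0.076 (adjusted p = 0.0825). Tnfrsf10b, a death receptor for TRAIL, rose with sh1 (0.46 ± 0.098, adjusted p = 3.62e-04) and stood at -0.015 ± 0.10 with sh2 (adjusted p = 0.938). Its mean-effect call (adjusted p = 0.0491) was lost under 9 alternatives, among them the removal of control replicate 2 (adjusted p = 0.456), either sh1 library or either sh2 library. Ei24, a membrane protein of the endoplasmic reticulum linked to autophagy, stood at 151 and 149 CPM in the controls, 126 and 138 with sh1 and 221 and 232 with sh2. Ei24 was lower with sh1 (-0.19 ± 0.054, adjusted p = 0.00603) and higher with sh2 (0.59 ± 0.052, adjusted p = 1.48e-09). The sh1 call of Ei24 was lost without sh1 replicate 1 (adjusted p = 0.125).

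Of the 4 genes of repair and nucleotide supply, Polk and Ercc5 were called higher for the mean of both hairpins and Xpc and Rrm2b were not called. Polk, a translesion DNA polymerase, had log2 fold changes of 0.29 ± 0.11 and 0.33 ± 0.11 (adjusted p = 0.0353 and 0.0313). Without control replicate 1 or control replicate 2 the mean-effect call of Polk was lost (adjusted p = 0.0829 and 0.0958). Ercc5, an endonuclease of nucleotide excision repair, rose with sh1 (0.32 ± 0.087, adjusted p = 0.00448), and its mean-effect call was lost without any 1 of 5 libraries, at adjusted p up to 0.302. Xpc, the damage sensor of nucleotide excision repair, had a mean effect of -0.15 ± 0.089 (adjusted p = 0.196). Rrm2b, the p53-inducible subunit of ribonucleotide reductase, had one of -0.080 ± 0.20 (adjusted p = 0.791) at levels between 3.07 and 6.25 CPM.

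Among the 6 genes of stress, metabolism and other roles, 3 were called higher for the mean of both hairpins. Ak1, an adenylate kinase, stood at 46.4 and 47.1 CPM in the controls, 55.6 and 50.6 with sh1 and 70.6 and 68.1 with sh2, with the sh2 libraries highest. The log2 fold change of Ak1 was 0.18 ± 0.072 with sh1 (adjusted p = 0.0394) and 0.57 ± 0.071 with sh2 (adjusted p = 6.04e-07), and the sh1 call was lost in 5 of 12 alternatives (adjusted p up to 0.359). Slc19a2, a thiamine transporter, rose by 0.24 and 0.31 (adjusted p = 0.00486 and 0.00116). Rps27l, a ribosomal protein paralog that p53 induces, rose by 0.16 and 0.19 (adjusted p = 0.0122 and 0.00811), and its mean-effect call was lost without control replicate 2 (adjusted p = 0.132). Its paralog Rps27, with which it may share reads, was lower with sh1 (-0.26 ± 0.059, adjusted p = 6.25e-04) and had a log2 fold change of 0.095 with sh2 (adjusted p = 0.254). Sesn1, a sestrin that restrains TORC1, stood at 15.5 and 18.4 CPM in the controls, 15.9 and 16.1 with sh1 and 24.6 and 24.9 with sh2. Sesn1 rose with sh2 (0.55 ± 0.11, adjusted p = 4.10e-04), as did Gdf15, a stress-induced cytokine (0.76 ± 0.24, adjusted p = 0.0188), and neither was called with sh1 (adjusted p = 0.589 and 0.527). The sh2 call of Gdf15 was lost with DESeq2 (adjusted p = 0.132), without sh2 replicate 1 (0.163) and without control replicate 1, where the log2 fold change was 0.49 (adjusted p = 0.236). Cd82, a tetraspanin, was at 0.463 to 1.82 CPM in this experiment. It was higher with sh1 (1.49 ± 0.49, adjusted p = 0.0156), a call lost in 4 of 12 alternatives (adjusted p up to 0.209).

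**Figure D2:**
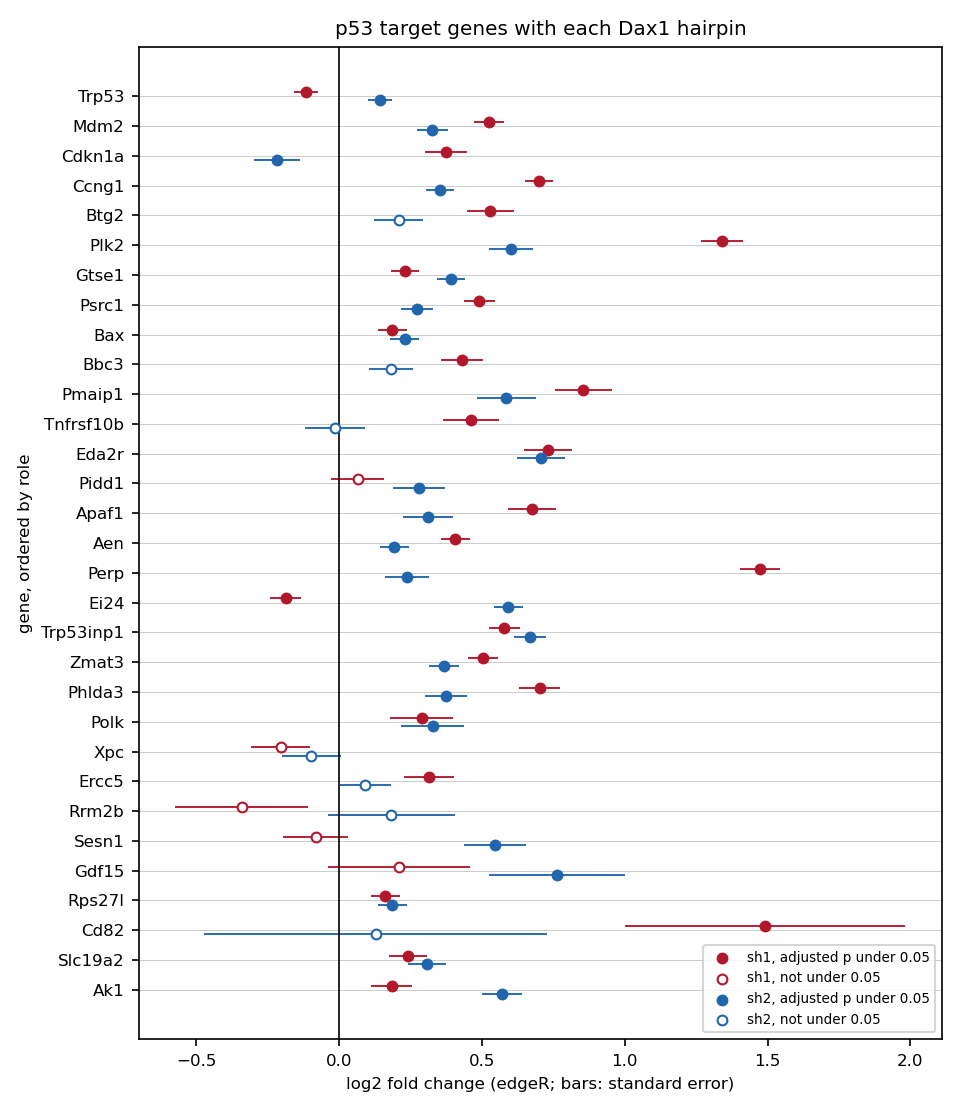
Log2 fold change of the 31 tested genes with Dax1 hairpin sh1 (red) and sh2 (blue) against the same control libraries. Points are edgeR estimates with bars of 1 standard error, filled where the adjusted p is under 0.05. Most pairs lie to the right of 0, the sh1 points of Cd82, Perp and Plk2 lie farthest out, and Trp53, Cdkn1a and Ei24 have filled points on both sides of 0.

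By hairpin, 24 of the 31 were called higher and 2 lower with sh1 (22.3% and 21.2% of all tested features), and 23 higher and 1 lower with sh2 (12.5% and 12.5%). Of these calls, 17 of 26 and 14 of 24 held in every alternative analysis. Those lost in at least 1 alternative were Trp53, Cd82, Ei24, Bax, Polk, Ercc5, Rps27l, Slc19a2 and Ak1 with sh1, and Trp53, Cdkn1a, Pidd1, Perp, Apaf1, Aen, Bax, Polk, Rps27l and Gdf15 with sh2. The hairpins share their control libraries, so their calls are not independent. The direct comparison of sh2 with sh1 called 5 genes higher and 16 lower, where 18.2% of all tested features were called higher and 18.2% lower. Genes higher with sh2 than with sh1 were Trp53, Gtse1, Ei24, Sesn1 and Ak1. The largest differences the other way among called genes were those of Cd82, Perp (-1.24 ± 0.069, adjusted p = 4.36e-14) and Plk2 (-0.74 ± 0.070, adjusted p = 2.39e-09).

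The remaining genes of the pathway were followed by list, and each count can be read against the 22.3% of all tested features called higher and 21.2% lower with sh1, and the 12.5% and 12.5% with sh2. Of 27 tested further p53 targets 13 were called higher and 3 lower with sh1, and 10 higher and 4 lower with sh2. Igfbp3, a secreted binder of insulin-like growth factors, rose with sh1 by 2.35 ± 0.071 on the log2 scale (adjusted p = 3.50e-20), and Sfn, which encodes the adaptor 14-3-3 sigma, by 1.45 ± 0.054 (adjusted p = 4.35e-18). Thbs1, which encodes the matrix protein thrombospondin, rose with sh1 (0.95 ± 0.066, adjusted p = 4.52e-12) and fell with sh2 (-1.27 ± 0.082, adjusted p = 3.20e-12). The median of this list was 0.39 with sh1 and 0.080 with sh2, beside 0.011 and 0.0062 for all tested features.

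Of 20 cell cycle genes that p53 represses through p21 and the DREAM complex, 11 were called lower and 1 higher with sh1, and 6 lower and 1 higher with sh2. The mitotic cyclin gene Ccnb2 was lower with both (-0.44 ± 0.060 and -0.37 ± 0.061, adjusted p = 1.02e-06 and 3.99e-05), and Cks1b, a subunit of cyclin-dependent kinases, was the gene higher with both (0.45 and 0.29, adjusted p = 6.43e-08 and 1.44e-04). Among 24 tested regulators of the pathway 3 were called higher and 11 lower with sh1, and 3 higher and 6 lower with sh2. Mdm4, an MDM2-related inhibitor of p53, was lower with sh1 (-0.69 ± 0.060, adjusted p = 2.89e-10). Kat5, an acetyltransferase that modifies p53, was lower with both hairpins (-0.42 ± 0.068 and -0.53 ± 0.070, adjusted p = 1.23e-05 and 1.72e-06). Of 19 genes of the BCL2 family and the caspases outside the 32, 6 were called higher and 6 lower with sh1, and 0 higher and 6 lower with sh2. The proapoptotic pore former gene Bak1 was lower with both (-0.37 ± 0.059 and -0.31 ± 0.060, adjusted p = 1.12e-05 and 2.42e-04), while Bcl2l11, which encodes the BH3-only protein BIM, was higher with sh1 (0.67 ± 0.071, adjusted p = 1.52e-08). The medians with sh1 and sh2 were -0.17 and -0.092 for the genes repressed through DREAM, -0.14 and -0.038 for the regulators and -0.13 and -0.20 for the BCL2 family and caspases. Of these lists 4 genes sit in a pair of lists: Ppm1d, Bid, Aurka and Chek1.

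Marker genes of another cell type moved with hairpin sh1. The summed level of 17 fibroblast markers was 34.6 to 36.6 CPM in the controls, 100 to 110.5 with sh1 and 38.0 to 43.0 with sh2, with 8 of 11 tested markers called higher and 0 lower with sh1 and 3 higher and 4 lower with sh2. Fap had 0 counts in every library of the 3 groups. The 9 ES cell markers summed to 7010 to 7097 CPM in the controls, 5503 to 5593 with sh1 and 7284 to 7589 with sh2, and 8 of the 9 were called lower with sh1. Their part in the values of the p53 target genes was not tested. Fewer cells of a type and less RNA per cell cannot be told apart in bulk libraries. The sums with sh2 lay outside the control range too, above it for both lists.

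**Figure D3:**
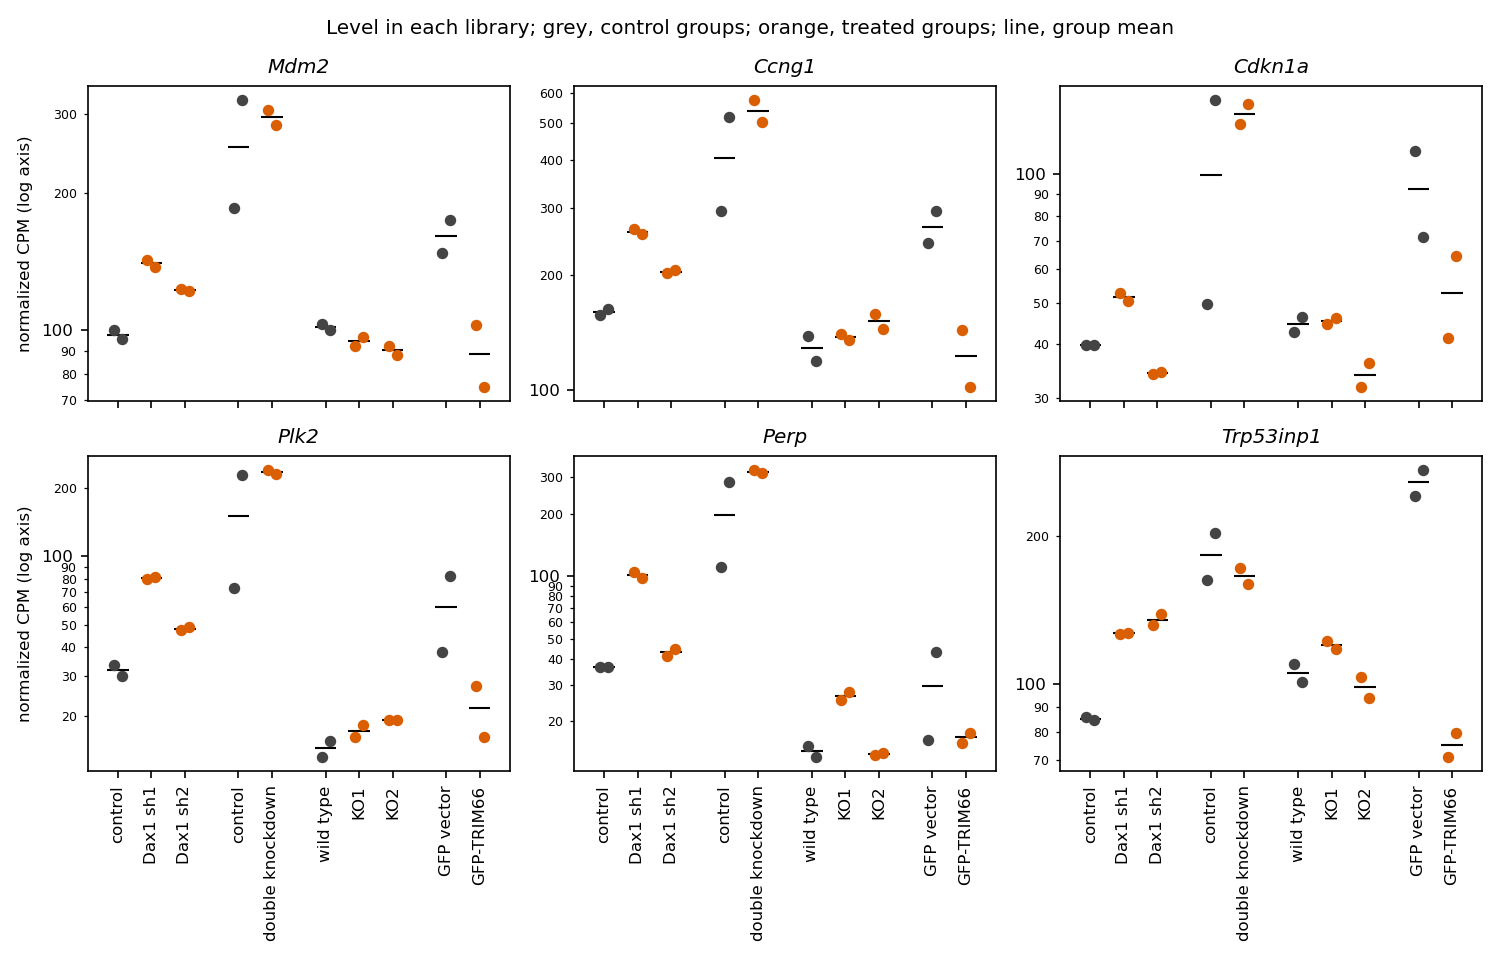
TMM-normalized CPM of 6 genes in each library, on a log axis, by group within the 4 experiments. Grey points are libraries of control groups, orange points those of the other groups, and each line is the mean of 2 libraries. Levels were scaled within an experiment, so they compare within an experiment. The control libraries of the double knockdown lie far apart for Plk2, Perp and Cdkn1a, and the Trp53inp1 libraries with GFP-TRIM66 lie well below both GFP vector libraries.

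With double knockdown of Dax1 and Dux, 0 of the 32 genes were called higher and 0 lower by edgeR, where 0.0904% of all tested features were called higher and 0.0139% lower. At an unadjusted p under 0.05 the counts were also 0 and 0, against 6.1% and 4.8%, and DESeq2 called 0 and 0, against 0.848% and 0.66%. The median log2 fold change of the 32 was 0.055, beside -0.0034 for all tested features. Both double knockdown libraries lay above both controls for 7 genes, against 24% of all tested features, and below both for 3, against 22.8%. The 7 were Plk2, Psrc1, Pmaip1, Fas, Eda2r, Perp and Cd82.

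The control libraries of this experiment lay far apart. Plk2 stood at 73.0 and 228 CPM in the controls and at 239 and 231 in the double knockdown, with a log2 fold change of 0.64 ± 0.47 (adjusted p = 0.611). Perp stood at 110 and 284 CPM in the controls and at 325 and 313 in the double knockdown (0.70 ± 0.40, adjusted p = 0.548). Cdkn1a stood at 49.8 and 149 CPM in the controls and at 132 and 146 in the double knockdown (0.48 ± 0.46, adjusted p = 0.693). In each of these 3 genes control replicate 1 was the low library and control replicate 2 lay close to the double knockdown. Mdm2 had the same order, with 185 and 321 CPM in the controls and 306 and 283 in the double knockdown (0.22 ± 0.26, adjusted p = 0.747). For Trim66 control replicate 2 was the library apart, with 87 counts against 4 in control replicate 1 and 7 and 16 in the double knockdown. Which control is the unusual one was not tested.

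Without control replicate 2, 16 of the 32 were called higher and 0 lower, where 18.6% of all tested features were called higher and 14.2% lower, and the lone control was assumed to vary like the double knockdown libraries. Plk2 then had a log2 fold change of 1.69 (adjusted p = 2.20e-36), Perp of 1.54 (8.04e-32) and Cdkn1a of 1.48 (5.85e-27). Without control replicate 1, 0 were called higher and 1 lower, where 4.57% were called higher and 3.52% lower. The gene called lower was Btg2, whose log2 fold change was -0.58 (adjusted p = 5.73e-05) there, 0.69 (adjusted p = 2.54e-06) without control replicate 2 and -0.082 ± 0.38 (adjusted p = 0.946) with all 4 libraries. The count, and for Btg2 the sign, thus changed with the control library left out. The summed fibroblast markers were 55.5 to 81.5 CPM in the controls and 190 to 203 in the double knockdown, and the summed ES cell markers 3109 to 4338 and 2804 to 3114. Their part in these values was not tested.

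The question whether the Dax1 effect differed from that of the double knockdown was tested by an interaction term over all 20 libraries. The control groups of both experiments differed in the level of Nr0b1, as given above, so the effects start from unlike baselines. With TMM factors over all 20 libraries, both double knockdown controls also exceeded both Dax1 controls for most of the 32 genes. Plk2 stood at 73.09 and 229.6 CPM against 34.43 and 31, Perp at 110.2 and 286 against 37.74 and 37.51. Mdm2 stood at 185.7 and 323.2 against 102.8 and 98.62. Trp53, Bax, Ei24, Xpc and Sesn1 were lower instead, and Gdf15, Rps27l and Cd82 overlapped. The cause was not tested. None of the 32 was called by edgeR, where 0.124% of all tested features were called with the larger Dax1 effect and 0.26% with the smaller. At an unadjusted p under 0.05, 2 genes had the larger Dax1 effect and 0 the smaller, against 3.68% and 5.29%. These were Trp53inp1 (difference 0.73 ± 0.16 on the log2 scale, adjusted p = 0.0652) and Zmat3 (0.42 ± 0.17, adjusted p = 0.462). Trp53inp1 stood at 163 and 203 CPM in the controls of the double knockdown and at 173 and 160 in the double knockdown, so the groups overlapped there, whereas all 4 Dax1 hairpin libraries were above their controls. Its difference was called with DESeq2 (adjusted p = 0.00486), in a fit of the 10 libraries of both knockdown experiments (0.0347), with voom weights per experiment (0.0110) and without control replicate 1 of the double knockdown (0.0346). Over its alternatives the adjusted p of Trp53inp1 ran from 0.00486 to 0.347. Without control replicate 2 of the double knockdown, Cdkn1a was called instead, with the smaller Dax1 effect (-1.43, adjusted p = 0.0125). Standard errors were large for other genes: the difference for Plk2 was 0.30 ± 0.50 and for Perp 0.13 ± 0.46.

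With GFP-TRIM66 against the GFP vector, 0 of the 32 genes were called higher and 0 lower by edgeR, where 0.0133% of all tested features were called higher and 0.00663% lower. The fold changes were nonetheless mostly below 0: the median of the 32 was -0.61, beside -0.019 for all tested features. Both GFP-TRIM66 libraries lay below both vector libraries for 18 genes, against 26.2% of all tested features, and above both for 0, against 24.1%. At an unadjusted p under 0.05, 13 genes were lower and 0 higher, against 9.05% and 7.66%. DESeq2 called 8 lower and 0 higher, against 1.97% and 1.86%: Ccng1, Btg2, Plk2, Pmaip1, Eda2r, Apaf1, Trp53inp1 and Polk.

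Trp53inp1 stood at 241 and 273 CPM with the vector and at 71.3 and 79.4 with GFP-TRIM66 (-1.77 ± 0.22, adjusted p = 0.126). Eda2r stood at 78.8 and 82.9 and at 36.8 and 34.9 CPM (-1.17 ± 0.22, adjusted p = 0.163). Apaf1 stood at 71.7 and 76.7 and at 29.0 and 32.8 CPM (-1.26 ± 0.23, adjusted p = 0.163). In all of these 3 the replicates lay close together and the groups did not overlap. Btg2 stood at 65.1 and 73.4 and at 25.9 and 26.9 CPM (-1.39 ± 0.24, adjusted p = 0.163). Ccng1 stood at 242 and 294 and at 143 and 102 CPM (-1.13 ± 0.25, adjusted p = 0.163). Polk stood at 36.8 and 32.3 and at 12.1 and 13.7 CPM (-1.43 ± 0.27, adjusted p = 0.163). Mdm2 was at 148 and 175 and at 102 and 74.9 CPM, without overlap (-0.87 ± 0.24, adjusted p = 0.190). With TMM factors over all 20 libraries, Trp53inp1 ran from 87.2 to 110 CPM in wild-type and Dax1 control libraries. Eda2r ran from 26.3 to 33.5 and Apaf1 from 27.2 to 31.7 there. The vector libraries held 236 and 264, 77.1 and 80.5, and 70.2 and 74.4, above those controls. The GFP-TRIM66 libraries held 70.0 and 78.2, 36.1 and 34.4, and 28.5 and 32.4. Trp53 was not higher with the vector (167 and 385.5, against 430 and 424 in wild type). The cause was not tested.

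Other genes of the set varied more between the libraries of a group. Trp53 stood at 171 and 397 CPM with the vector and at 500 and 342 with GFP-TRIM66, so that the groups overlapped (0.57 ± 0.40, adjusted p = 0.494). Plk2 stood at 38.2 and 82.4 and at 27.1 and 16.2 CPM (-1.48 ± 0.43, adjusted p = 0.192), and Pmaip1 at 51.9 and 39.6 and at 12.1 and 23.3 CPM (-1.37 ± 0.36, adjusted p = 0.175), both without overlap. Fas, at 1.54 and 2.03 CPM with the vector, was at 0.439 and 0.240 CPM with GFP-TRIM66 (-2.37 ± 0.66, adjusted p = 0.190). Log2 fold changes above 0 were found for 5 genes, Trp53, Gtse1, Bax, Aen and Phlda3, with the libraries of the groups overlapping in each. Leaving out 1 library moved the edgeR count. Without vector replicate 2, 1 gene was higher (Trp53, 1.34, adjusted p = 0.0322) and 3 lower (Btg2, Trp53inp1 and Polk), where 3.2% and 1.62% of all tested features were called. Without vector replicate 1, Plk2 and Trp53inp1 were lower (adjusted p = 0.0382 and 0.0152), where 0.0453% were called lower. Without GFP-TRIM66 replicate 1, 2 were lower (0.288% of all tested features), and without replicate 2, 4 were lower (1.61%). The summed fibroblast markers overlapped between the groups, at 46.8 to 85.9 and 55.4 to 77.2 CPM, and the ES cell markers summed to 7111 to 7179 and 7960 to 8144 CPM. Their part in these values was not tested.

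In the libraries labelled Trim66 knockout the p53 target genes went both ways. For the mean of both lines 6 of 31 were called higher and 7 lower, where 12.7% of all tested features were called higher and 10.7% lower. The median log2 fold change of the 31 was 0.055, beside 0.0096 for all tested features. Called higher were Psrc1, Tnfrsf10b, Eda2r, Perp, Gdf15 and Ak1, and called lower were Trp53, Btg2, Pmaip1, Phlda3, Ercc5, Sesn1 and Slc19a2. Mdm2, Ccng1 and Cdkn1a were not called, with log2 fold changes of -0.14 ± 0.078, 0.16 ± 0.091 and -0.18 ± 0.098 (adjusted p = 0.229, 0.223 and 0.211). Trp53 stood at 430 and 431 CPM in the wild-type libraries, 345 and 356 in KO1 and 380 and 347 in KO2, below both wild-type libraries throughout (mean of both lines -0.27 ± 0.077, adjusted p = 0.0312).

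Of the 7 called lower, 4 lie on chromosome 1 (Btg2, Phlda3, Ercc5 and Slc19a2), and these are all 4 of the 32 genes on that chromosome. Genes of chromosome 1 were low in these libraries at large: their median log2 fold change was -0.52, and 56.5% of 763 were called lower, against 8.62% of 13380 elsewhere. These counts depended on the wild-type libraries. Without wild-type replicate 1, 1 gene was called higher (Gdf15) and 2 lower (Pmaip1 and Slc19a2), where 4.39% and 3.6% of all tested features were called. Without wild-type replicate 2, 1 was called higher (Ak1) and 2 lower (Pmaip1 and Slc19a2), where 4.47% and 4.62% were called. Without KO1 replicate 1, 3 were higher and 3 lower (6.94% and 5.87% of all tested features), and without KO1 replicate 2, 4 and 3 (6.69% and 5.87%). Without KO2 replicate 1, 10 were higher and 7 lower (16.5% and 14.9%), and without KO2 replicate 2, 8 and 8 (16.7% and 18.6%).

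Gdf15, Ak1, Eda2r and Psrc1 were called higher in KO1 and in KO2, and the lines share their wild-type libraries. Gdf15 stood at 4.45 and 3.09 CPM in the wild-type libraries, 8.56 and 8.37 in KO1 and 7.83 and 7.77 in KO2 (1.17 ± 0.22 and 1.05 ± 0.22, adjusted p = 0.00308 and 0.0126). Ak1 stood at 25.6 and 31.0 CPM in the wild-type libraries, 44.6 and 47.4 in KO1 and 44.2 and 42.4 in KO2 (0.70 ± 0.12 and 0.61 ± 0.12, adjusted p = 0.00227 and 0.0112). The others were Eda2r (0.36 and 0.43, adjusted p = 0.0321 and 0.0319) and Psrc1 (0.43 and 0.42, adjusted p = 0.0129 and 0.0306). The calls of Eda2r and Psrc1 in both lines were lost without any 1 of the 4 wild-type and KO1 libraries, at adjusted p up to 0.198 for Eda2r and 0.189 for Psrc1. In KO2 the call of Ak1 was lost without wild-type replicate 1 (adjusted p = 0.126) and that of Gdf15 without wild-type replicate 2 (adjusted p = 0.125). In these 4 genes all KO1 and KO2 libraries lay above both wild-type libraries, as in 6 of the 31 tested genes and 2715 of 15086 tested features. The 4 were picked by calls on these same libraries, so this adds no support. The share of all tested features called higher in both lines was not counted.

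Called in KO1 were 9 genes higher and 5 lower (17.4% and 13.8% of all tested features), and in KO2 4 higher and 2 lower (6.45% and 5.29%). KO2 against KO1 called 3 higher and 8 lower, where 10.1% and 13% of all tested features were called. Pmaip1 stood at 28.8 and 29.5 CPM in the wild-type libraries, 9.77 and 6.52 in KO1 and 30.0 and 28.4 in KO2. KO1 alone was low for this gene (-1.85 ± 0.18, adjusted p = 8.31e-05), and KO2 exceeded KO1 by 1.85 ± 0.18 (adjusted p = 1.72e-04). Bbc3 stood at 20.2 and 21.3 CPM in the wild-type libraries, 42.5 and 44.7 in KO1 and 11.0 and 24.3 in KO2. It was higher in KO1 (1.07 ± 0.26, adjusted p = 0.0124), a call lost without any 1 of the 4 wild-type and KO1 libraries (adjusted p up to 0.0884), and its KO2 libraries lay on either side of wild type. Perp stood at 15.2 and 13.5 CPM in the wild-type libraries, 25.2 and 27.6 in KO1 and 13.69 and 14.02 in KO2, so that KO1 was the high group (0.88 ± 0.14, adjusted p = 0.00108). Tnfrsf10b was likewise higher in KO1 (0.88 ± 0.13, adjusted p = 9.53e-04) and had a log2 fold change of 0.19 ± 0.13 in KO2 (adjusted p = 0.411).

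On chromosome 1 the lines also differed from each other. Slc19a2 (164249046 to 164265385) stood at 78.5 and 80.2 CPM in the wild-type libraries, 40.9 and 41.9 in KO1 and 75.6 and 77.6 in KO2, so that KO1 was the low group (-0.94 ± 0.096, adjusted p = 1.16e-04). Btg2 (134074865 to 134079155) stood at 34.4 and 36.9 CPM in the wild-type libraries, 27.0 and 29.2 in KO1 and 12.1 and 19.4 in KO2, lowest in KO2 (-1.17 ± 0.19, adjusted p = 0.00366). Phlda3 (135766085 to 135769134) was likewise lowest in KO2 (-0.87 ± 0.17, adjusted p = 0.00905). Ercc5 was lower in KO1 (-0.40 ± 0.13, adjusted p = 0.0372) and had a log2 fold change of -0.42 ± 0.13 in KO2 (adjusted p = 0.0588). Sesn1, outside chromosome 1, was lower in KO1 (-0.69 ± 0.15, adjusted p = 0.00720) and stood at -0.12 ± 0.15 in KO2 (adjusted p = 0.651). Of the calls, 6 of 14 in KO1 (Gdf15, Ak1, Perp, Tnfrsf10b, Pmaip1 and Slc19a2), 1 of 6 in KO2 (Btg2) and 3 of 11 for KO2 against KO1 (Pmaip1, Perp and Slc19a2) held in every alternative. Counts by line depended on single libraries: in KO1 they ran from 4 to 12 higher and 2 to 6 lower when a library was left out, in KO2 from 1 to 7 higher and 1 to 5 lower, and for KO2 against KO1 from 2 to 5 higher and 2 to 11 lower.

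**Figure D4:**
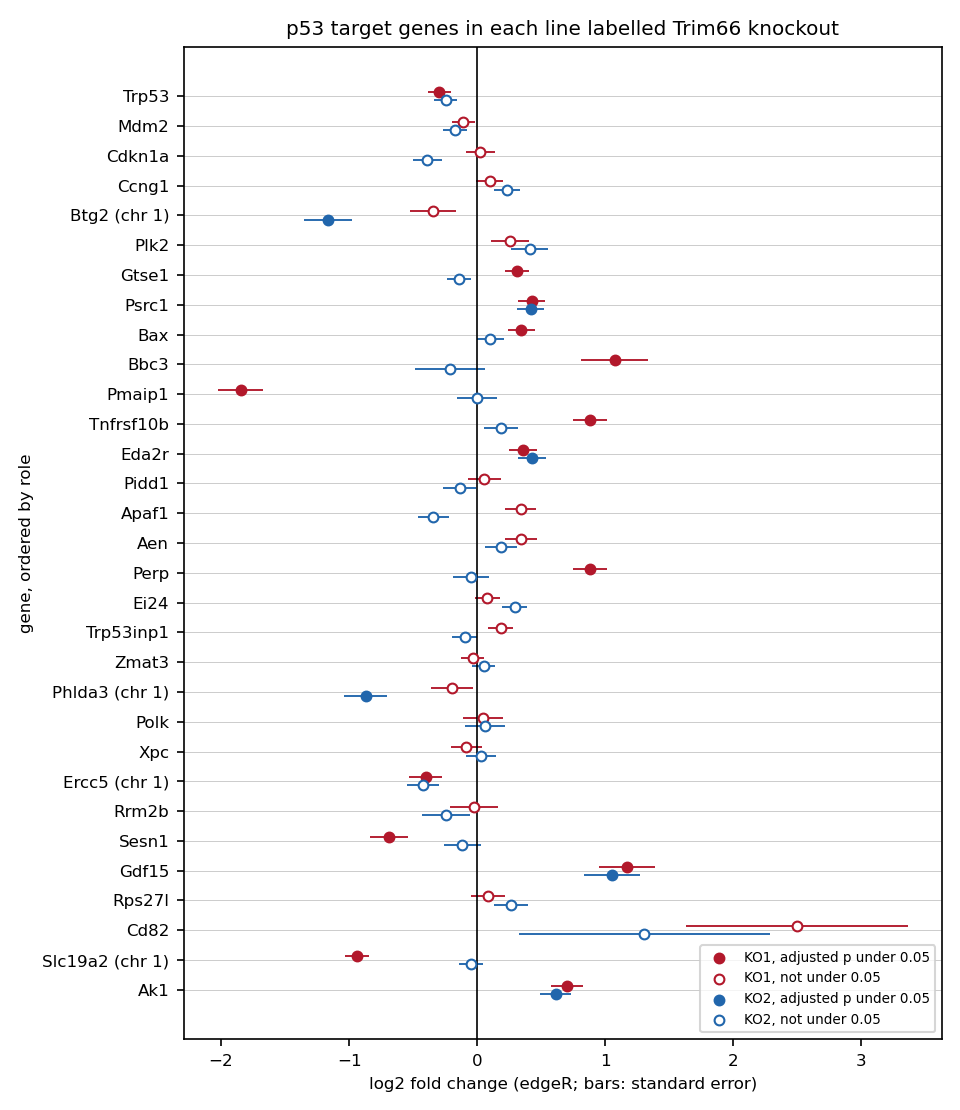
Log2 fold change of the 31 tested genes in the lines KO1 (red) and KO2 (blue) labelled Trim66 knockout against the same wild-type libraries. Points are edgeR estimates with bars of 1 standard error, filled where the adjusted p is under 0.05. Genes on chromosome 1 are marked. Psrc1, Eda2r, Gdf15 and Ak1 have both points filled to the right of 0, and Pmaip1 and Slc19a2 are apart from 0 in KO1 alone.

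Other genes of the pathway in these lines were counted by list for the mean of both lines, where 12.7% of all tested features were called higher and 10.7% lower. Of 28 further p53 targets 8 were called higher and 5 lower, among them Ddit4, an inhibitor of TORC1 signalling (1.59 ± 0.13, adjusted p = 4.67e-05), and Gadd45a, a growth arrest gene (0.80 ± 0.087, adjusted p = 2.25e-04). Of 24 tested regulators 2 were called higher and 5 lower. Mdm4 (-0.62 ± 0.073, adjusted p = 3.44e-04) and Rfwd2, which encodes the p53 ubiquitin ligase COP1 (-0.78 ± 0.090, adjusted p = 3.11e-04), were lower, and both lie on chromosome 1. Of 20 genes repressed through p21 and DREAM 0 were called higher and 2 lower, Nek2 and Mcm5. Of 19 BCL2 family and caspase genes 3 were called higher and 3 lower. The medians were 0.10 for the further targets, -0.069 for the regulators, 0.061 for the genes repressed through DREAM and -0.16 for the BCL2 family and caspases, beside 0.0096 for all tested features. The summed fibroblast markers were 56.7 to 58.2 CPM in the wild-type libraries, 59.13 to 59.14 in KO1 and 50.3 to 56.6 in KO2, with Lum and Fap at 0 counts in every library of the 3 groups. ES cell markers summed to 7497 to 8286, 7718 to 7871 and 7373 to 8852 CPM. Single markers moved both ways beneath these sums. For the mean of both lines 3 of 8 tested fibroblast markers were called higher and 2 lower, with Col1a1 at 2.50 and Pdgfra at -1.13 on the log2 scale. Of the 9 ES cell markers 1 was called higher (Tdgf1, 0.60) and 2 lower, among them Klf4 (-0.77). Their part in the values of the p53 target genes was not tested.

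Among the 4 genes higher in both lines labelled knockout, Psrc1, Eda2r and Ak1 were also higher with both Dax1 hairpins, and these experiments do not share libraries. A call of higher with both hairpins was made for 18 of the 31 tested genes, so it does not set these 4 apart. The calls of Psrc1 and Eda2r in the lines and those of Ak1 in KO2 and with sh1 were lost in some alternatives, as given above. Eda2r had log2 fold changes of 0.39 in the mean of the lines, 0.72 in the mean of the hairpins, 0.53 in the double knockdown and -1.17 with GFP-TRIM66, where the last pair were not called. Pmaip1 was higher with both Dax1 hairpins and lower in KO1. Levels of a gene are set side by side within an experiment, except where TMM factors over all 20 libraries are named. Fas had between 0 and 7 counts per library in the Dax1 and Trim66 experiments, and its edgeR estimate in the double knockdown was 0.78 ± 0.51 (adjusted p = 0.581). Cd82 was also low, with 0.0717 to 4.47 CPM over the 20 libraries.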

How the data were processed

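The deposited tables, 1 per experiment, hold raw counts for genes and transposable element subfamilies, with no normalization by the authors that the file headers or values show: every value is a whole number. Each has 25574 features, of which 24421 are genes (27 with names turned into dates, at most 0.21% of a library) and 1153 are element subfamilies. Per the submitters' processing notes the series used Trim Galore, HISAT2 2.1.0, Cufflinks 2.2.1, Bowtie2, MACS2, DiffBind and deepTools with mm10. Counting tool and annotation were not given in the sources used here, and 9 chromatin immunoprecipitation samples were not analysed here.

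Each experiment was fitted alone with edgeR 4.0.16 (R 4.3.3): filterByExpr (minimum count 10, total 15), TMM, quasi-likelihood F test, and Benjamini-Hochberg adjustment over all features tested, with calls below 0.05. Mean effects weight both lines or hairpins equally. The interaction was fitted over all 20 libraries. Alternatives were DESeq2 1.42.0, other size factors, other filters, genes alone, a replicate block, TMM without chromosome 1, each library left out and, for the interaction, 10 libraries or voom weights (limma 3.58.1). The pipeline was tested on simulated data. SE is the log2 fold change over the root of F. CPM are TMM-normalized within an experiment, except the levels given with factors over all 20 libraries. Gene positions are from RefSeq on GRCm38.p6, the build that mm10 denotes.

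The members and lists were chosen with earlier results of these data known. All 32 members, Trim66, Nr0b1 and Rps27 could be named, and of each list up to 4 called genes per comparison with the smallest adjusted p. One gene that this rule names is not reported here.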

Additional observations from a re-analysis of the deposited data

Results flagged for a closer look

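The lines KO1 and KO2 and the hairpins sh1 and sh2 were each compared directly, and a gene is given here where its effect differed between them by edgeR's quasi-likelihood test at an adjusted p under 0.05. Each pair shares its control libraries, and no cause of the differences was tested.

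KO2 exceeded KO1 on the log2 scale for Pmaip1 by 1.85, for Slc19a2 by 0.89 and for Sesn1 by 0.57. The difference of KO2 from KO1 was -1.28 for Bbc3, -0.93 for Perp, -0.82 for Btg2, -0.69 for Tnfrsf10b and -0.68 for Apaf1. It was -0.67 for Phlda3, -0.45 for Gtse1 and -0.41 for Cdkn1a.

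The hairpin sh2 exceeded sh1 on the log2 scale for Ei24 by 0.78, for Sesn1 by 0.63, for Ak1 by 0.39, for Trp53 by 0.26 and for Gtse1 by 0.16. The difference of sh2 from sh1 was -1.36 for Cd82, -1.24 for Perp, -0.74 for Plk2, -0.59 for Cdkn1a, -0.48 for Tnfrsf10b and -0.36 for Apaf1. It was -0.35 for Ccng1, -0.33 for Phlda3, -0.32 for Btg2, -0.27 for Pmaip1, -0.25 for Bbc3, -0.22 for Ercc5, -0.22 for Psrc1, -0.21 for Aen, -0.20 for Mdm2 and -0.14 for Zmat3. Levels of Cd82 were low in this experiment, and its difference was lost in 4 of 12 alternatives, among them without sh1 replicate 1 (adjusted p = 0.290). The differences of Bbc3, Btg2, Ercc5, Gtse1, Pmaip1 and Zmat3 between the hairpins were also lost in at least 1 alternative, as were those between the lines for all genes named except Pmaip1, Perp and Slc19a2.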

How the results depend on the processing

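Counts of members called higher and lower stayed within 1.5 times of the values given in every alternative for the mean Dax1 effect, with these exceptions elsewhere. In KO2 against wild type, 4 were lower rather than 2 without a filter, with the replicate block and with TMM factors without chromosome 1. With GFP-TRIM66, 1 was lower without a filter and 8 with DESeq2, rather than 0. With sh2, DESeq2 called 0 lower rather than 1. In the interaction 1 was higher with DESeq2, with 10 libraries and with voom weights, rather than 0. With each library left out in turn, the mean of the lines ranged from 1 to 10 higher and 2 to 8 lower, KO1 from 4 to 12 and 2 to 6, KO2 from 1 to 7 and 1 to 5, and KO2 against KO1 from 2 to 5 and 2 to 11. The double knockdown ranged from 0 to 16 higher and 0 to 1 lower, GFP-TRIM66 from 0 to 1 and 2 to 4, the interaction from 0 to 1 and 0 to 1, sh1 from 1 to 2 lower and sh2 from 0 to 1 lower. Btg2 in the double knockdown had a log2 fold change of 0.69 without control replicate 2 and of -0.58 without control replicate 1, beside -0.082 with all libraries. Of the calls, 18 of 23 held in every alternative for the mean Dax1 effect and 2 of 13 for the mean of the lines. The causes were not tested. Replicate numbers were not given as shared days or cultures, and deviations of same-numbered libraries correlated at -0.547 with GFP-TRIM66 and at 0.0059 to 0.216 elsewhere. The replicate block gave 8 higher and 7 lower for the mean of the lines, 12 and 5 in KO1, 5 and 4 in KO2, 23 and 0 for the mean Dax1 effect, and 0 and 0 with GFP-TRIM66 and in the double knockdown. With 2 libraries a group, the spread between libraries limits the double knockdown and GFP-TRIM66, and low counts limit Fas and Cd82.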
